A study of Arabidopsis thaliana with 12 samples.

Results

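The genes described here are 42 *Arabidopsis* genes that loosen or build the primary cell wall, out of 33601 loci with counts. They are a fixed list of loci, and comprise 13 α-expansins (EXPA), 4 genes of the β-expansin and expansin-like A groups (EXPB, EXLA), 20 xyloglucan endotransglucosylase/hydrolase (XTH) genes and the 5 primary-wall cellulose synthase genes *CESA1*, *CESA2*, *CESA3*, *CESA5* and *CESA6*. The list does not cover the families, since 18 other expansin and 13 other XTH genes, of which 2 each passed the filter on low counts between *pifq* dark and WT dark, are described apart at the end. The list was chosen with earlier results of these data known, so shares of called genes below describe it and test nothing. RNA was taken from whole seedlings in the Columbia background after 3 days in darkness. The 4 groups were the quadruple mutant *pif1pif3pif4pif5* (*pifq*) on 0.5 mM lincomycin (*pifq* dark linc), *pifq* on medium without the drug (*pifq* dark), the wild type on 0.5 mM lincomycin (WT dark linc) and the wild type without it (WT dark), with 3 biological replicates each and 12 libraries in all. No library came from light-grown seedlings, and whole seedlings mix hypocotyl, cotyledon and root, so that fewer cells of a type and less RNA per cell cannot be told apart in any value below.

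An etiolated seedling elongates its hypocotyl by stretching existing cell walls. Expansins loosen the contacts between cellulose and matrix polysaccharides without cutting them, XTH enzymes cut and rejoin the xyloglucan chains that tether cellulose microfibrils, and the CESA proteins form the plasma-membrane complexes that spin new microfibrils. The PIFs are basic helix-loop-helix factors that keep dark-grown seedlings etiolated, and they bind the G-box and the PBE-box, whereas lincomycin blocks translation in plastids and so perturbs the retrograde signals that plastids send to the nucleus. The comparisons ask which wall genes depend on the PIFs in darkness, and whether lincomycin moves them.

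The reference sequence (RefSeq, assembly TAIR10.1) held a gene model for each of the 42 genes, and the stretch from 250 bases before to 50 bases after each annotated start was read for the letters of both PIF motifs on either strand. The G-box, CACGTG, was in 0 of the 42 stretches, and in 7.67% of the 27476 stretches of all coding genes. The PBE-box, CACATG on one strand and CATGTG on the other, was in 7 of the 42 stretches (16.7%), and in 12.9% of all coding genes. The letters CCAATC or GATTGG, bound by the GLK factors that act in plastid development, were in 8 of the 42 (19%) and in 12.3% of all. A match is a description of letters and not a shown binding site. The stretches around the 7 PBE-boxes are printed because these genes include some with large differences between the genotypes, with the box in capitals and 30 bases on either side, 5′ to 3′ on the strand of the gene.
EXPA1 (chr1:26141495-26141562, plus strand): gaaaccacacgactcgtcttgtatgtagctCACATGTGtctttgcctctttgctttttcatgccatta
EXPA10 (chr1:9259271-9259338, plus strand): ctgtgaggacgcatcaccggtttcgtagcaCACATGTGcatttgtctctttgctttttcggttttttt
EXPA2 (chr5:1568483-1568548, plus strand): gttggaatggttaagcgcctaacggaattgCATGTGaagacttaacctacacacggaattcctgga
EXPA11 (chr1:6999804-6999934, minus strand): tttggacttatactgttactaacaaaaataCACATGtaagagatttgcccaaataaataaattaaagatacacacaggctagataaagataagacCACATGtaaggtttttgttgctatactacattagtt
XTH17 (chr1:24256961-24257026, plus strand): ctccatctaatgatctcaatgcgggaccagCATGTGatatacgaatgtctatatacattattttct
XTH18 (chr4:14827239-14827304, minus strand): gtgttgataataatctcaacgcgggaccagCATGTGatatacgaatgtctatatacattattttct
XTH33 (chr1:3481200-3481265, minus strand): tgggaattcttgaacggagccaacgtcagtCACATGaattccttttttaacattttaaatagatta
In *EXPA1* and *EXPA10* both orientations of the box overlap in the run CACATGTG. Of the 30 bases after it, 20 were the same at the same place in both genes, among them the run ctctttgctttttc of 14 bases, and of the 30 bases before it 12 were the same. *XTH17* and *XTH18* carry the box at the same distance from their starts, 63 bases before them, and 58 of the 66 bases shown were identical. Their close relative *XTH19* had no PBE-box, and its most similar stretch without gaps, in which the capitals mark the bases aligned to the box of *XTH18*, had 29 of 66 bases identical.
XTH19 (chr4:14830231-14830296, minus strand): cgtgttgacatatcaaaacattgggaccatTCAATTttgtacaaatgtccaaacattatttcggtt

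Library totals were between 11495950 and 17612505 counts, and 3 counts, taken as the smallest detected level, corresponded to between 0.154 and 0.263 normalized CPM. PCR copies are not independent molecules, so this floor accounts for counting error alone. Levels are CPM (reads scaled to a common library size) after TMM normalization of all 12 libraries, and differences are log2 fold changes from edgeR's quasi-likelihood test on the libraries of both groups compared, given ± their standard errors, with Benjamini-Hochberg adjusted p-values over all genes tested, which were those with at least 5 CPM, before TMM scaling, in at least 2 libraries. An SS gene had an adjusted p of at most 0.05, and an SSTF gene one of at most 0.01 together with a change of 2-fold or more. As a check of the labels, the 3′-end reads of *PIF1*, *PIF3* and *PIF5* were lower in *pifq* dark than in WT dark, by log2 fold changes of −4.82, −6.04 and −3.75, whereas those of *PIF4* were higher (0.62 ± 0.19, 12.8 ± 3.46 CPM in *pifq* dark and 8.25 ± 0.622 CPM in WT dark; SD, n = 3 each). Reads from the 3′ end need not be lost from a disrupted gene, so *PIF4* does not check its label here.

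Between *pifq* dark and WT dark, 38 of the 42 wall genes passed the filter on low counts. Among them, 8 were higher in *pifq*, 19 were lower and 11 did not pass the test. Over all 13456 genes tested, 21.0% were higher and 20.0% were lower. The share of higher genes was thus close to that of all genes, and the share of lower genes was above it. As the list was chosen with earlier results known, this is a description and no test. Shares among genes of like level were not taken. At the SSTF threshold 6 of the wall genes were higher and 11 were lower, against 6.60% and 6.23% of all genes tested. The median log2 fold change of the 38 genes was −0.35, and the median over the whole table was 0.00. The families divided differently. Of 11 α-expansins tested, 4 were higher and 3 were lower, all 3 EXPB and EXLA genes tested were lower, 4 of 19 XTH genes were higher and 11 were lower, and 2 of the 5 CESA genes were lower. The gene that differed most in each direction was an XTH gene.

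*XTH7* (AT4G37800), an enzyme of the xyloglucan-remodelling family encoded at chr4:17775370-17777445, had 863, 709.9 and 598 CPM in *pifq* dark, against 47.7, 50.4 and 45.1 CPM in WT dark. All *pifq* libraries lay more than an order of magnitude above all WT libraries, with the log2 fold change being 3.91 ± 0.17 (adjusted p = 2.52e-08). Under lincomycin it had 632, 608 and 511 CPM in *pifq* dark linc, against 40.8, 41.9 and 58.7 CPM in WT dark linc, and the *pifq* and WT libraries were again far apart (3.63 ± 0.16). In the other direction stood *XTH15* (AT4G14130), also known as XTR7, at chr4:8137020-8138392, with 37.9, 32.2 and 47.9 CPM in *pifq* dark, against 692, 529 and 752 CPM in WT dark. The ranges did not approach each other, with the log2 fold change being −4.07 ± 0.20 (adjusted p = 6.51e-08). With lincomycin *XTH15* had 31.3, 34.3 and 42.9 CPM in *pifq* dark linc, against 557, 487 and 562 CPM in WT dark linc, again without overlap (−3.89 ± 0.15).

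**Figure D1:**
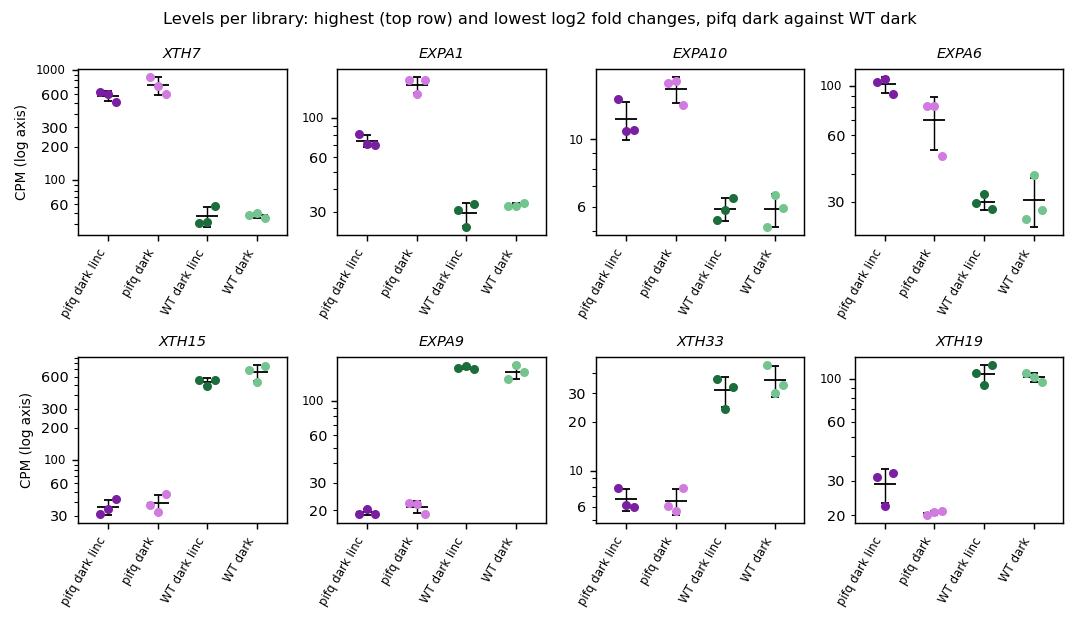
Normalized CPM (log axes, a scale of its own for each gene) in the 12 libraries, for the 4 wall genes with the highest (top row) and the 4 with the lowest log2 fold change in *pifq* dark against WT dark. Points are libraries, in the order of their replicate numbers, and bars are mean ± SD (n = 3); *XTH7* averaged 723 CPM in *pifq* dark and 47.7 CPM in WT dark, and *XTH15* 39.4 and 658 CPM in the same groups.

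Among the α-expansins, 4 stood higher in *pifq* dark. *EXPA1* (AT1G69530), whose stretch with the double PBE-box is shown above, had 161, 135 and 163 CPM in *pifq* dark, against 32.3, 32.2 and 33.4 CPM in WT dark. The *pifq* libraries were far above all WT libraries, with the log2 fold change being 2.22 ± 0.13 (adjusted p = 1.77e-07). *EXPA10* (AT1G26770), with the same double box, had 15.3, 15.5 and 12.9 CPM in *pifq* dark, against 5.12, 6.57 and 5.92 CPM in WT dark and differed by 1.31 ± 0.16 on the log2 scale. Its groups did not overlap either.
*EXPA6* (AT2G28950) had 81.4, 81.5 and 48.4 CPM in *pifq* dark, against 25.1, 39.4 and 27.4 CPM in WT dark, and *EXPA5* (AT3G29030) had 70.1, 64.6 and 47.7 CPM in *pifq* dark, against 26.3, 29.3 and 25.1 CPM in WT dark. In both genes the third *pifq* library was the lowest of its group and still above every WT library, with log2 fold changes of 1.19 ± 0.21 and 1.17 ± 0.15.

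The other direction was led by *EXPA9* (AT5G02260) at chr5:463073-465273, with 22.1, 22 and 18.8 CPM in *pifq* dark, against 138, 169.7 and 153 CPM in WT dark. The *pifq* libraries were all far below the WT libraries, with the log2 fold change being −2.88 ± 0.13 (adjusted p = 4.14e-08). *EXPA11* (AT1G20190), which has 2 copies of the box in the stretch printed above, averaged 92.1 ± 18.7 CPM in *pifq* dark and 173 ± 4.57 CPM in WT dark (−0.92 ± 0.15), and *EXPA4* (AT2G39700) had 6.54, 8.5 and 7.11 CPM in *pifq* dark, against 9.88, 11.7 and 11.2 CPM in WT dark (−0.57 ± 0.16). The *EXPA4* groups were close but separate, and its call was lost without WT dark replicate 3 (adjusted p = 0.0527) or *pifq* dark replicate 1 (adjusted p = 0.062). The 4 α-expansins tested that did not pass were *EXPA2* (AT5G05290), *EXPA3* (AT2G37640), *EXPA8* (AT2G40610) and *EXPA20* (AT4G38210), with log2 fold changes of −0.30 ± 0.18, −0.36 ± 0.15, 0.06 ± 0.15 and 0.46 ± 0.18. *EXPA3* averaged 246 ± 41.1 CPM in *pifq* dark and 314 ± 33.4 CPM in WT dark.

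The expansin-like genes, whose wall-loosening activity has not been shown, and the β-expansin tested all fell in *pifq*. *EXLA2* (AT4G38400) had 27.6, 20.5 and 27.5 CPM in *pifq* dark, against 88.5, 55.5 and 76.5 CPM in WT dark (−1.56 ± 0.19). *EXLA1* (AT3G45970) had 13.4, 12.7 and 17.5 CPM in *pifq* dark, against 40.3, 23.3 and 30.4 CPM in WT dark (−1.13 ± 0.20). In both genes every *pifq* library was below every WT library, and WT dark replicate 2 was the lowest of its group. *EXPB1* (AT2G20750) averaged 6.3 ± 1.4 CPM in *pifq* dark and 9.14 ± 1.23 CPM in WT dark, and its log2 fold change of −0.55 ± 0.20 no longer passed in 4 of the 6 fits that left out 1 library (without WT dark replicate 1 or 3, or *pifq* dark replicate 1 or 2).

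Of the XTH genes higher in *pifq*, *XTH22* (AT5G57560), the touch-inducible gene TCH4, had 143, 151 and 98.3 CPM in *pifq* dark, against 54.8, 71.8 and 51.4 CPM in WT dark. Its groups were separate, with the log2 fold change being 1.13 ± 0.18 (adjusted p = 3.81e-04). *XTH9* (AT4G03210) averaged 56 ± 1.66 CPM in *pifq* dark and 33.3 ± 4.47 CPM in WT dark (0.74 ± 0.13), and *XTH16* (AT3G23730) averaged 83.3 ± 6.78 and 56.6 ± 6.86 CPM in the same groups (0.55 ± 0.12). The call of *XTH16* was lost when counts were scaled by library totals (adjusted p = 0.199).

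The closely related genes *XTH17* (AT1G65310), *XTH18* (AT4G30280) and *XTH19* (AT4G30290) fell together in *pifq*. *XTH18* and *XTH19* are neighbours on chromosome 4 with 1500 bases and no gene between them, and *XTH24* (AT4G30270) is the next gene, 5161 bases away. *XTH17* had 51.7, 45.1 and 54.4 CPM in *pifq* dark, against 219.6, 157 and 184 CPM in WT dark. *XTH18* had 79.6, 64.7 and 68.5 CPM in *pifq* dark, against 351, 261 and 292 CPM in WT dark. *XTH19* had 19.9, 20.8 and 20.9 CPM in *pifq* dark, against 107, 102 and 96 CPM in WT dark. For each of the 3 genes all WT libraries were above all *pifq* libraries, and the log2 fold changes were −1.90 ± 0.15, −2.10 ± 0.15 and −2.32 ± 0.12. Reads were counted on the last 500 bases of each transcript with 1 mismatch allowed, and there *XTH17* and *XTH18* are 89.2% identical over 461 bases, *XTH18* and *XTH19* 86.8% over 386 bases, and *XTH17* and *XTH19* 84.9% over 390 bases. A part of the reads could therefore belong to another of the 3 genes, so that their separate values are uncertain. *EXLA1* and *EXLA2* are 84.3% identical over 242 bases, and 0 of the 42 genes had another gene at 90% identity or more over at least 100 bases. The neighbour *XTH24*, also called MERI5B, averaged 592 ± 67.1 CPM in *pifq* dark and 787 ± 119.7 CPM in WT dark (−0.42 ± 0.15, adjusted p = 0.0449), a call lost in 5 of the 6 fits that left out 1 library (all but that without WT dark replicate 3).

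The other XTH genes that fell at least 2-fold were *XTH33* (AT1G10550), *XTH5* (AT5G13870), *XTH30* (AT1G32170) and *XTH23* (AT4G25810). *XTH33*, which carries a PBE-box, had 6.05, 5.64 and 7.9 CPM in *pifq* dark, against 44.8, 30.02 and 33.9 CPM in WT dark (−2.49 ± 0.19). *XTH5* had 8.15, 9.69 and 8.86 CPM in *pifq* dark, against 29.6, 43.9 and 36.5 CPM in WT dark (−2.05 ± 0.17). In both genes the WT libraries were all several times higher than the *pifq* libraries.
*XTH30* had 295, 245 and 184 CPM in *pifq* dark, against 581, 659 and 560.0 CPM in WT dark (−1.33 ± 0.17), and *XTH23* had 6.86, 8.42 and 10.7 CPM in *pifq* dark, against 20.2, 12.5 and 19 CPM in WT dark (−1.01 ± 0.22). The highest *pifq* library was below the lowest WT library in both, narrowly so for *XTH23*.
Smaller decreases were called for *XTH8* (AT1G11545) (−0.68 ± 0.19) and *XTH31* (AT3G44990) (−0.63 ± 0.14), the second of a group of XTH enzymes with xyloglucan-hydrolysing activity. The 4 XTH genes that did not pass were *XTH4* (AT2G06850), *XTH27* (AT2G01850), *XTH28* (AT1G14720) and *XTH32* (AT2G36870), between −0.06 and 0.35. *XTH4*, with 833, 664 and 1126 CPM in *pifq* dark, against 1189, 625 and 898 CPM in WT dark, overlapped completely between the genotypes.

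**Figure D2:**
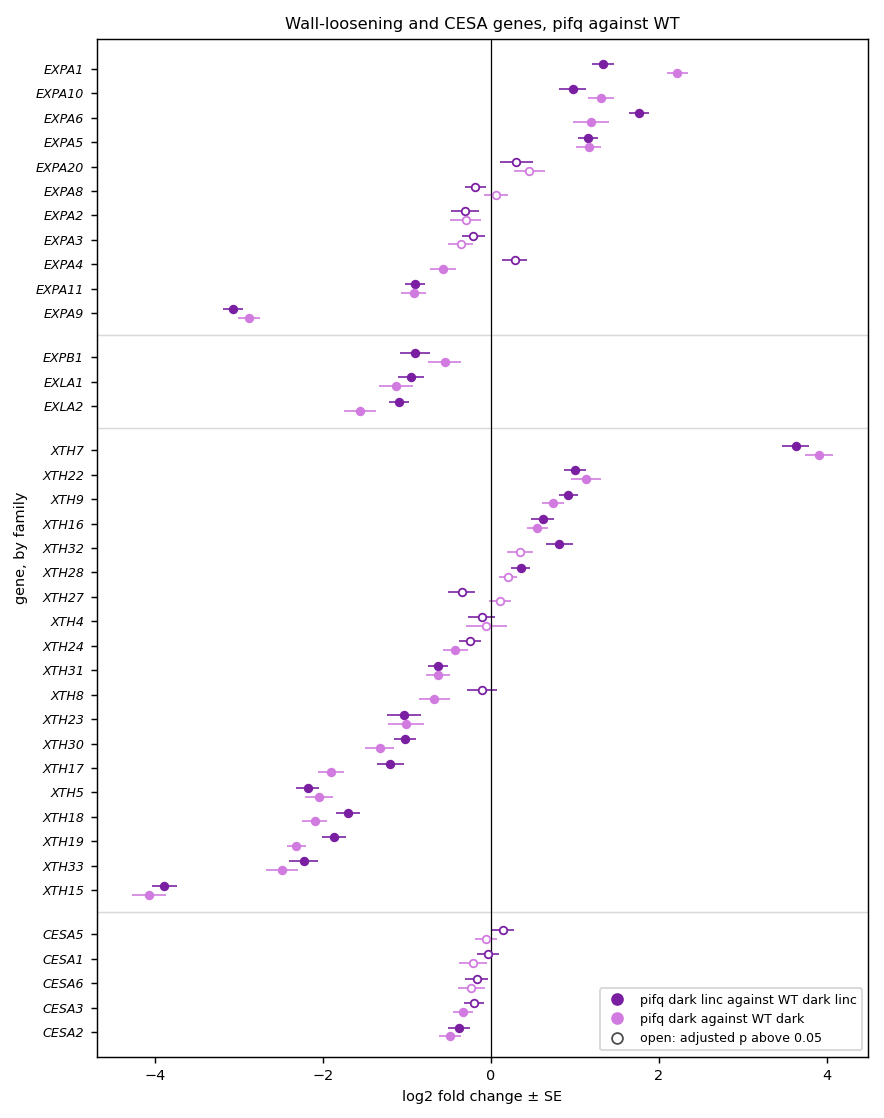
Log2 fold change ± standard error of the 38 wall genes tested in both genotype comparisons, by family and in the order of the values without lincomycin. Dark points compare *pifq* dark linc with WT dark linc, light points *pifq* dark with WT dark, and filled points passed an adjusted p of 0.05; *XTH7* and *XTH15* are the outermost genes at 3.91 and −4.07 without lincomycin, and the CESA genes lie between −0.49 and 0.14.

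The cellulose synthase genes differed by less than 2-fold in either direction. *CESA1*, *CESA3* and *CESA6* encode the usual subunits of the primary-wall complex, and *CESA2* and *CESA5* can partly replace *CESA6*. *CESA1* (AT4G32410) had 282, 299 and 209.6 CPM in *pifq* dark, against 268, 371 and 270.5 CPM in WT dark, with a wide overlap (−0.21 ± 0.17). *CESA3* (AT5G05170) had 306, 289 and 271 CPM in *pifq* dark, against 354, 372 and 355 CPM in WT dark. The groups of *CESA3* were separate, its log2 fold change was −0.33 ± 0.12 (adjusted p = 0.0426), and the call was lost in each of the 6 fits that left out 1 library (adjusted p between 0.0732 and 0.105).
*CESA6* (AT5G64740) had 110.0, 109 and 78.8 CPM in *pifq* dark, against 97.6, 139 and 111 CPM in WT dark, overlapping between the genotypes (−0.23 ± 0.16). *CESA2* (AT4G39350) had 21.6, 21.8 and 26 CPM in *pifq* dark, against 34, 31.9 and 30.6 CPM in WT dark, with every *pifq* library below every WT library (−0.49 ± 0.13, adjusted p = 0.0105, and 0.0546 without *pifq* dark replicate 1). *CESA5* (AT5G09870) had 21.5, 19.5 and 17.6 CPM in *pifq* dark, against 20.9, 21.8 and 17.8 CPM in WT dark, and its groups overlapped (−0.06 ± 0.13). For *CESA1*, *CESA5* and *CESA6* the standard errors of 0.13 to 0.17 leave room for small differences in either direction.

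The summed level of the 42 genes differed less than the levels of many single genes. It was 4784 ± 322 CPM in *pifq* dark and 6109.6 ± 302 CPM in WT dark (SD, n = 3 each). The 20 XTH genes summed to 3230.2 ± 209 CPM in *pifq* dark and 4280.0 ± 372 CPM in WT dark, and the 13 α-expansins to 808 ± 79.1 and 882 ± 42.2 CPM in the same groups. The 5 CESA genes summed to 694 ± 78.9 CPM in *pifq* dark and 832 ± 90.1 CPM in WT dark. The EXPB and EXLA genes summed to 51.2 ± 7.26 CPM in *pifq* dark and 116 ± 25.4 CPM in WT dark. These levels depend on the scaling. On library totals the 42 genes summed to 3987 ± 149 CPM in *pifq* dark and 6654 ± 483 CPM in WT dark. In the same groups the XTH genes summed to 2694 ± 154 and 4665 ± 526 CPM, and the α-expansins to 673 ± 30.7 and 959 ± 24.0 CPM. The CESA genes summed to 577 ± 36.0 and 904 ± 63.0 CPM, and the EXPB and EXLA genes to 42.9 ± 7.77 and 127 ± 31.3 CPM. With library totals in place of TMM the median of the whole table was −0.37, with 16.8% instead of 51.3% of all called genes higher in *pifq*, and the wall genes then numbered 7 higher and 24 lower, where 9.42% and 46.7% of all genes were called, with a median of −0.72.

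The PBE-box stretches printed above belonged to 2 of the 8 genes higher in *pifq* dark (*EXPA1* and *EXPA10*), to 4 of the 19 lower genes (*EXPA11*, *XTH17*, *XTH18* and *XTH33*), to 1 of the 11 that did not pass (*EXPA2*) and to 0 of the 4 not tested. Genes with and without the box thus stood in both directions, *XTH7*, *XTH15* and *EXPA9* being without it.

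The root gene *TIP2;3* and both markers of the etiolated shoot differed with the genotype, and their part in the differences above was not tested. Of 5 genes of roots and root hairs, only *TIP2;3* passed the filter, and it was lower in *pifq* dark (−0.85 ± 0.15). The 5 genes summed to between 196 and 275 CPM in the *pifq* dark libraries and between 369 and 451 CPM in the WT dark libraries, a sum that *TIP2;3* nearly made up, while the root-hair genes *COBL9*, *PRP3*, *EXPA7* and *EXPA18* each averaged under 3 CPM in both groups and were at 0 in neither. In *pifq* dark and WT dark, *COBL9* averaged 1.06 and 0.691 CPM, *PRP3* 2.44 and 2.57 CPM, *EXPA7* 1.41 and 1.08 CPM, and *EXPA18* 0.509 and 0.666 CPM. Both markers of the etiolated shoot were lower in *pifq* dark, with log2 fold changes of −2.18 ± 0.18 for *PORA* and −0.52 ± 0.16 for *PORB*. In *pifq* dark linc against WT dark linc, *TIP2;3* (−0.67 ± 0.14), *PORA* (−2.78 ± 0.14) and *PORB* (−0.62 ± 0.13) were lower as well. The root-hair genes were all under the filter and not tested there, with means higher in *pifq*. *COBL9* averaged 2.01 ± 0.835 CPM in *pifq* dark linc and 0.85 ± 0.293 CPM in WT dark linc, *PRP3* 3.96 ± 1.51 and 2.32 ± 1.2 CPM, *EXPA7* 3.12 ± 0.82 and 2.09 ± 0.526 CPM, and *EXPA18* 1.44 ± 0.606 and 0.889 ± 0.207 CPM in the same groups.

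The 4 remaining wall genes did not pass the filter for *pifq* dark against WT dark. *EXPA16* (AT3G55500) had 5.89, 4.61 and 5.97 CPM in *pifq* dark, against 1.33, 0.764 and 0.721 CPM in WT dark, and *EXPB3* (AT4G28250) had 5.49, 5.16 and 4.91 CPM in *pifq* dark, against 1.28, 2.37 and 1.6 CPM in WT dark. In both genes the *pifq* libraries were above all WT libraries, and a fit without the filter, over 23735 genes, gave log2 fold changes of 2.49 (adjusted p = 5.78e-08) and 1.58 (adjusted p = 1.70e-05). On lincomycin the fit without the filter gave 1.61 (adjusted p = 7.91e-04) for *EXPA16* and 1.49 (adjusted p = 3.81e-08) for *EXPB3* in *pifq* against WT. *EXPA15* (AT2G03090) had 4.28, 5.88 and 3.77 CPM in *pifq* dark, against 2.66, 2.67 and 2.47 CPM in WT dark and a log2 fold change of 0.81 in that fit (adjusted p = 0.00893). *XTH20* (AT5G48070) had at most 2 counts in any library, under the floor of 3 counts, so that a difference was not detectable at this depth.

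The genotype difference was then read in seedlings grown on lincomycin, in 6 other libraries. Of 39 wall genes tested between *pifq* dark linc and WT dark linc, 11 were higher in *pifq* and 15 were lower, against 17.4% and 18.5% of the 13557 genes tested, so that both shares were above those of the whole table. This too describes a list chosen with earlier results known, and is no test. At the SSTF threshold 6 wall genes were higher and 10 were lower, against 3.75% and 4.37% of all genes tested. This comparison shares no library with that of *pifq* dark and WT dark. All 8 genes higher without lincomycin were also higher with it (100% of the first list and 72.7% of the second), and 15 of the 19 genes lower without it were lower with it (78.9% of the first list and 100% of the second). No gene was called in opposite directions, and 34 of the 38 genes tested in both had the same sign. The same shares over all genes were not computed, so these overlaps do not set the wall genes apart from the whole table.

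The genes that lost the call under lincomycin were *EXPA4*, *XTH8*, *XTH24* and *CESA3*, with log2 fold changes of 0.28 ± 0.15, −0.11 ± 0.18, −0.25 ± 0.13 and −0.20 ± 0.12. Of these 4, only *EXPA4* passed the interaction test below. *EXPA15*, *XTH28* and *XTH32* were called here and not without lincomycin, where *EXPA15* was under the filter. *EXPA15* had 7.41, 6.59 and 7.87 CPM in *pifq* dark linc, against 2.05, 3.74 and 2.92 CPM in WT dark linc and every *pifq* library exceeded every WT library (1.32 ± 0.21, adjusted p = 4.15e-05). *XTH32* had 19.4, 17 and 16.4 CPM in *pifq* dark linc, against 7.68, 12.2 and 10.1 CPM in WT dark linc (0.82 ± 0.16), also without overlap. *XTH28* averaged 58.9 ± 3.93 CPM in *pifq* dark linc and 46.1 ± 4.65 CPM in WT dark linc (0.35 ± 0.12), a call lost without WT dark linc replicate 1 or *pifq* dark linc replicate 2 or 3 and on library totals. Neither *EXPA15*, *XTH28* nor *XTH32* passed the interaction test.

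The large genotype differences were called again on the drug. *EXPA9* had 18.9, 20.4 and 18.9 CPM in *pifq* dark linc, against 161, 166 and 161 CPM in WT dark linc (−3.07 ± 0.12). *EXPA6* had 105, 108 and 92.3 CPM in *pifq* dark linc, against 29.7, 32.6 and 27.7 CPM in WT dark linc (1.76 ± 0.12). The ranges of both genes were farther apart than the spread within any group.
*XTH5* had 10.1, 11.4 and 8.96 CPM in *pifq* dark linc, against 41.5, 46 and 50.7 CPM in WT dark linc (−2.18 ± 0.13), and *XTH33* had 7.87, 6.16 and 6 CPM in *pifq* dark linc, against 36.8, 24.1 and 32.9 CPM in WT dark linc (−2.23 ± 0.17). *XTH17*, *XTH18* and *XTH19* differed by −1.20 ± 0.16, −1.70 ± 0.14 and −1.87 ± 0.14, with 92.3, 81 and 89.1 CPM in *pifq* dark linc, against 317, 225 and 311 CPM in WT dark linc for *XTH18*. In all of these genes the WT libraries were above the *pifq* libraries without overlap.
*EXPA5* and *EXPA10* differed by 1.16 ± 0.12 and 0.97 ± 0.16, *XTH22* by 1.00 ± 0.13, *XTH9* by 0.92 ± 0.11 and *XTH16* by 0.62 ± 0.14. Among the lower genes, *EXLA1*, *EXLA2* and *EXPB1* differed by −0.96 ± 0.15, −1.10 ± 0.12 and −0.90 ± 0.18, *XTH30* and *XTH23* by −1.03 ± 0.13 and −1.04 ± 0.20, and *EXPA11* and *XTH31* by −0.90 ± 0.11 and −0.63 ± 0.12. The only CESA gene called under lincomycin was *CESA2*, with 23.6, 20.1 and 23.3 CPM in *pifq* dark linc, against 29.6, 24.8 and 32.2 CPM in WT dark linc (−0.38 ± 0.13, adjusted p = 0.0298), and that call was lost without WT dark linc replicate 1 or 3 or *pifq* dark linc replicate 2.

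In the wild type, lincomycin moved none of the wall genes past the threshold. Of 38 genes tested between WT dark linc and WT dark, 0 were called higher and 0 lower by edgeR's quasi-likelihood test, against 3.17% and 2.91% of the 13455 genes tested, whereas 1 was higher and 8 were lower at an unadjusted p under 0.05, and DESeq2 called 0 higher and 2 lower. Log2 fold changes lay between −0.64 (*XTH23*) and 0.32 (*XTH5*), and 1 of the 38 exceeded 0.5 in size. *XTH23*, the gene with the smallest adjusted p (0.0737), had 13.7, 8.43 and 11.7 CPM in WT dark linc, against 20.2, 12.5 and 19 CPM in WT dark, which overlap. The count depended on single libraries. Without WT dark replicate 2 the same test called 2 genes higher and 8 lower, and without WT dark linc replicate 1 it called 2 lower. Shares over all genes were not taken for these fits, for DESeq2 or for the unadjusted p. Their counts therefore cannot be read against the whole table. In the same seedlings *PORA* (−1.24 ± 0.16) and *PORB* (−1.46 ± 0.15), which encode enzymes of chlorophyll synthesis, were lower on lincomycin than without it.

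In *pifq*, a fit that did not pair the libraries called 8 of 39 wall genes tested higher with lincomycin and 3 lower. Of the 13142 genes tested, 9.68% and 13.5% were called in these directions. The wall genes thus had a larger share of increases than the whole table. The difference between the genotypes in this response is tested below. Same-numbered libraries of *pifq* dark linc and *pifq* dark deviated together from their group means in all 3 pairs. When the fit held a block for the replicate number, 17 wall genes were higher and 10 were lower, where 20.0% of all genes were higher and 21.8% were lower. The share of decreases among the wall genes was below that of all genes without the block and above it with the block. On library totals, which moved the median of all genes tested to 0.32 and the share of higher genes among all called to 85.8% from 41.7%, 21 wall genes were higher and 2 were lower, where 39.9% and 6.60% of all genes were called. Without the block, leaving out 1 library gave 3 to 6 higher and 2 to 4 lower genes, with 3 higher without *pifq* dark replicate 1, *pifq* dark linc replicate 1 or *pifq* dark linc replicate 2, and 4 without replicate 3 of either group. Shares of all genes were not taken for these fits, so whether the larger share of increases held in them was not tested.

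Both markers of the etiolated shoot fell with lincomycin in *pifq*, and no root gene passed the test. The part of these markers in the wall gene counts was not tested. The study's supplement lists *PORA* among marker genes of plastid retrograde signalling, so it does not mark tissue alone. *PORA* averaged 70.5 ± 5.31 CPM in *pifq* dark linc and 252 ± 21.8 CPM in *pifq* dark (−1.85 ± 0.12), and *PORB* averaged 408 ± 28.5 and 1200.3 ± 97.5 CPM in the same groups (−1.58 ± 0.14), so that both fell. Of the 5 root and root-hair genes, *TIP2;3* did not pass (0.31 ± 0.14, adjusted p = 0.118), and the other 4 were under the filter and not tested. *COBL9* averaged 2.01 CPM in *pifq* dark linc and 1.06 CPM in *pifq* dark, *PRP3* 3.96 and 2.44 CPM, *EXPA7* 3.12 and 1.41 CPM, and *EXPA18* 1.44 and 0.509 CPM, the mean being higher on lincomycin in all 4. The 5 genes summed to between 287 and 313 CPM in the *pifq* dark linc libraries and between 196 and 275 CPM in the *pifq* dark libraries.

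The only SSTF wall gene in this comparison was *EXPA1*, which fell, as did 4.54% of all genes tested at that threshold, while 1.39% rose. It had 80.9, 71.7 and 70.1 CPM in *pifq* dark linc, against 161, 135 and 163 CPM in *pifq* dark. The lincomycin-treated libraries were all well below the untreated ones, with the log2 fold change being −1.06 ± 0.12 (adjusted p = 5.21e-05), and the treated *pifq* libraries were still above all WT libraries. The other 2 genes that fell were *XTH27*, with 13.4, 10.8 and 12.6 CPM in *pifq* dark linc, against 21.5, 23.3 and 18.5 CPM in *pifq* dark (−0.80 ± 0.14), and *XTH23*, with 5.73, 4.2 and 6.62 CPM in *pifq* dark linc, against 6.86, 8.42 and 10.7 CPM in *pifq* dark (−0.67 ± 0.22). Both were separate between the groups, and the call of *XTH23* was lost with RLE size factors, on library totals and in the fit of all 12 libraries.
The largest increase was that of *EXPA4*, with 11.4, 13.2 and 12.9 CPM in *pifq* dark linc, against 6.54, 8.5 and 7.11 CPM in *pifq* dark (0.74 ± 0.16). *XTH8* had 424, 271 and 218 CPM in *pifq* dark linc, against 210.0, 205 and 135 CPM in *pifq* dark (0.72 ± 0.22). *XTH32* had 19.4, 17 and 16.4 CPM in *pifq* dark linc, against 12, 11 and 10.2 CPM in *pifq* dark (0.66 ± 0.14) and *EXPA15* had 7.41, 6.59 and 7.87 CPM in *pifq* dark linc, against 4.28, 5.88 and 3.77 CPM in *pifq* dark (0.63 ± 0.20). In each of these 4 genes every treated library was above every untreated library.
*EXPA6*, *XTH19*, *XTH9* and *XTH28* rose by 0.51 ± 0.17, 0.47 ± 0.15, 0.36 ± 0.11 and 0.35 ± 0.11. *EXPA6* and *XTH9* were already higher in *pifq* dark than in WT dark, and *XTH19* was lower. These comparisons share the *pifq* dark libraries, so a low or high value there enters both with opposite signs. Of the 11 calls, those of *EXPA1*, *EXPA4*, *XTH27* and *XTH32* were kept in every fit that left out 1 library, and *EXPA6*, *EXPA15*, *XTH8*, *XTH9*, *XTH19*, *XTH23* and *XTH28* each lost it in at least 4 of 6. Those fits did not pair the libraries. In the quasi-likelihood test with the replicate block and all libraries, the genes that lost it had adjusted p between 6.72e-06 (*XTH8*) and 0.00784 (*EXPA15*).

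**Figure D3:**
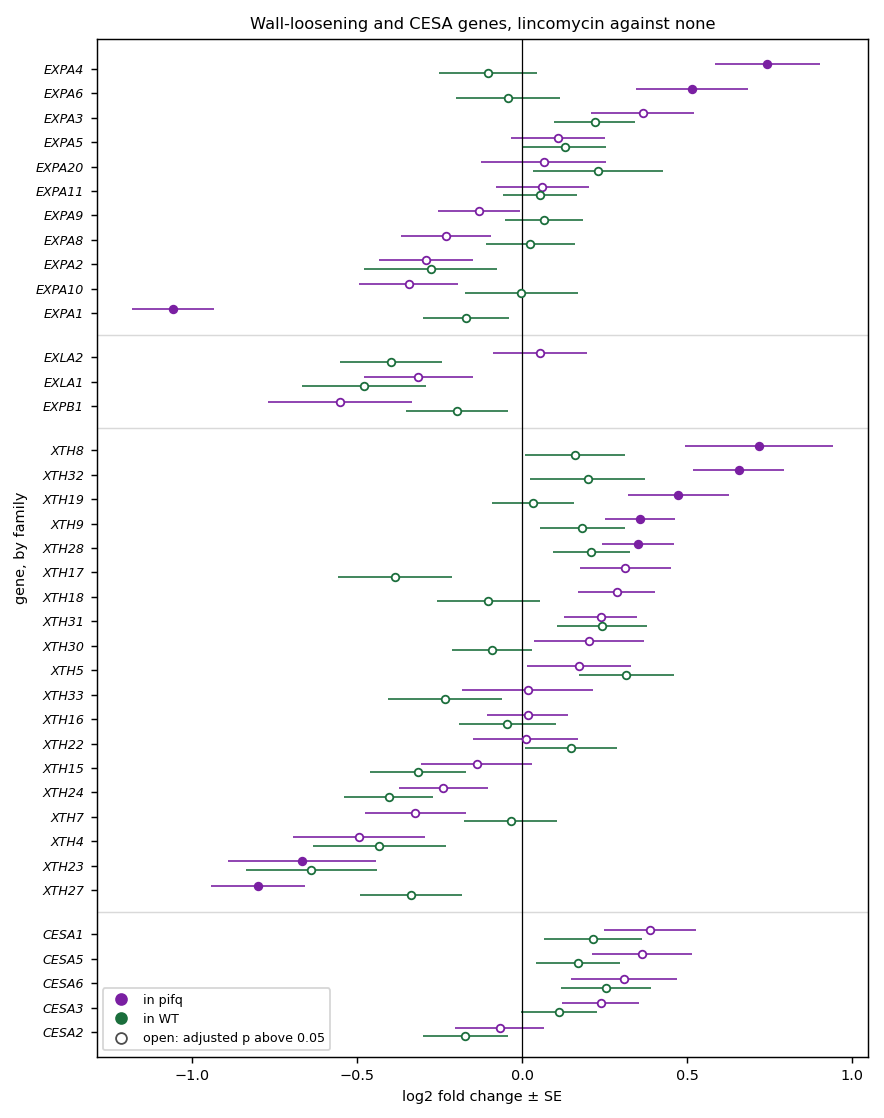
Log2 fold change ± standard error with lincomycin against none, for the 38 wall genes tested in both genotypes. Purple points are *pifq* and green points WT, filled where the adjusted p was at most 0.05 without the replicate block; *EXPA1* lies at −1.06 in *pifq* and −0.17 in WT, *EXPA4* at 0.74 and −0.10, and no WT point is filled.

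With the replicate block, 4 of the 5 CESA genes rose on lincomycin in *pifq*: *CESA1* by 0.40, *CESA5* by 0.35, *CESA6* by 0.31 and *CESA3* by 0.24 on the log2 scale (adjusted p between 0.00109 and 0.0274), and *CESA2* was at −0.07 (adjusted p = 0.66). Over all genes tested, 20.0% were higher with the block. Without the block none of the 5 passed, the closest being *CESA1* (adjusted p = 0.0658). *CESA1* had 359.5, 356 and 328 CPM in *pifq* dark linc, against 282, 299 and 209.6 CPM in *pifq* dark, *CESA3* had 368, 339 and 325 CPM in *pifq* dark linc, against 306, 289 and 271 CPM in *pifq* dark and *CESA6* had 149, 124 and 100.4 CPM in *pifq* dark linc, against 110.0, 109 and 78.8 CPM in *pifq* dark. The groups of *CESA1* and *CESA3* were separate, and those of *CESA6* overlapped through the third treated library.
*CESA5* had 31, 21.9 and 23.1 CPM in *pifq* dark linc, against 21.5, 19.5 and 17.6 CPM in *pifq* dark, and *CESA2* had 23.6, 20.1 and 23.3 CPM in *pifq* dark linc, against 21.6, 21.8 and 26 CPM in *pifq* dark. The treated libraries of *CESA5* were all higher by a small margin, and those of *CESA2* overlapped the untreated ones. In WT dark linc against WT dark, *CESA1*, *CESA3*, *CESA5* and *CESA6* had log2 fold changes of 0.22 ± 0.15, 0.11 ± 0.12, 0.17 ± 0.13 and 0.25 ± 0.14, with none called. These WT values are from the fit without the block. The interactions of the 5 CESA genes lay between 0.06 and 0.20, and none was called, so no difference between the genotypes was shown.
The other genes added by the block were *EXPA3*, *XTH17*, *XTH18*, *XTH30* and *XTH31*, higher by 0.36, 0.31, 0.29, 0.22 and 0.24, and *EXPA2*, *EXPA8*, *EXPA10*, *EXPB1*, *XTH4*, *XTH7* and *XTH24*, lower with log2 fold changes between −0.55 (*EXPB1*) and −0.23 (*EXPA8*). These small decreases hold on the TMM scale, relative to which library totals moved the median of all genes tested to 0.32. *EXPA16*, under the filter, had 1.45, 2.03 and 0.857 CPM in *pifq* dark linc, against 5.89, 4.61 and 5.97 CPM in *pifq* dark, and in the fit without the filter its log2 fold change was −1.91 (adjusted p = 8.54e-06).

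The test of whether lincomycin acted differently in *pifq* and WT, an interaction term over all 12 libraries, called 2 of the 39 wall genes tested, 1 with a higher and 1 with a lower response in *pifq* than in WT. Of the 14040 genes tested, 1.23% and 3.75% were called in these directions, shares near those of the wall genes. *EXPA1* responded less in WT, with 30.6, 24.5 and 32.9 CPM in WT dark linc, against 32.3, 32.2 and 33.4 CPM in WT dark, where the libraries overlap, and its interaction was −0.88 ± 0.18 (adjusted p = 0.00535). On library totals, which moved the median interaction of all genes to 0.33, this call was lost (adjusted p = 0.0567), 12 wall genes were called higher and 0 lower, where 11.0% and 1.92% of all genes were called, and the share of higher among all called genes was 85.1% instead of 24.6%. *EXPA4* had 9.89, 11.8 and 9.21 CPM in WT dark linc, against 9.88, 11.7 and 11.2 CPM in WT dark, overlapping, and its interaction was 0.85 ± 0.21 (adjusted p = 0.02). It was lost in 5 of the 12 fits that left out 1 library, those without WT dark replicate 3, WT dark linc replicate 1 or 3, *pifq* dark replicate 1 or *pifq* dark linc replicate 2 (adjusted p between 0.0507 and 0.0647). At an unadjusted p under 0.05 the interaction was positive for 4 and negative for 2 wall genes. The share of all genes at that threshold was not taken, so these counts cannot be read against the whole table. The gene next to pass was *XTH17*, with 68.7, 52.2 and 69.1 CPM in *pifq* dark linc, against 51.7, 45.1 and 54.4 CPM in *pifq* dark, and 161, 106 and 168 CPM in WT dark linc, against 219.6, 157 and 184 CPM in WT dark. Its groups overlapped through single libraries in both genotypes, and its interaction was 0.71 ± 0.25 (adjusted p = 0.13).

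**Figure D4:**
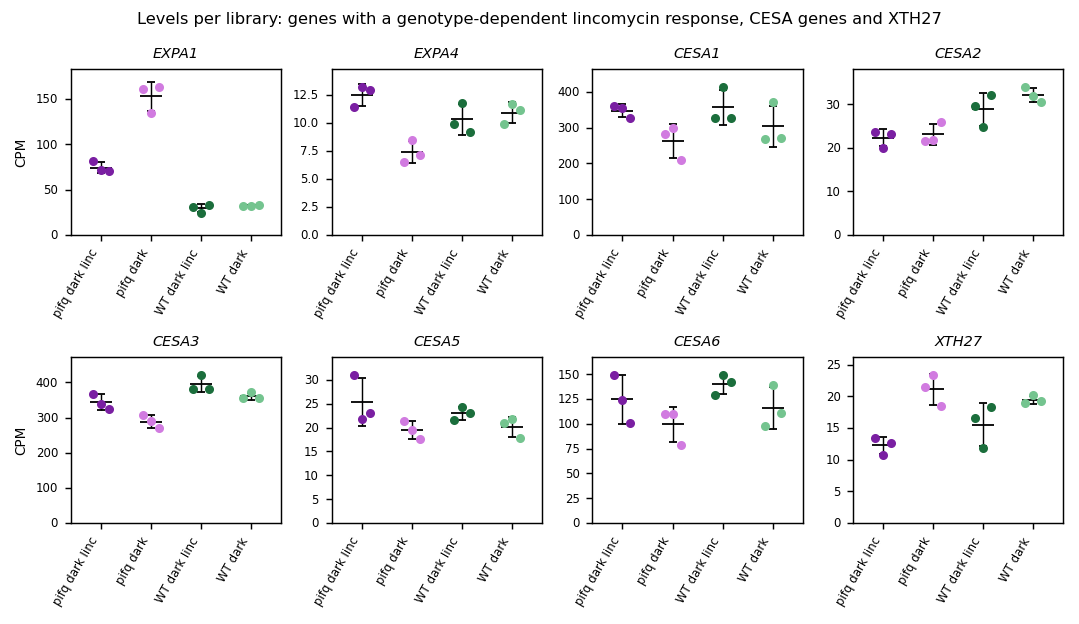
Normalized CPM (linear axes from 0, a scale of its own for each gene) in the 12 libraries for *EXPA1*, *EXPA4*, the 5 CESA genes and *XTH27*. Points are libraries and bars mean ± SD (n = 3); *EXPA1* averaged 74.2 CPM in *pifq* dark linc and 153 CPM in *pifq* dark, and *EXPA4* 12.5 and 7.38 CPM in the same groups.

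Relatives and partners of these genes were read from further lists. Of 18 other expansin genes, 2 passed the filter, with log2 fold changes of −0.08 and 0.13 between *pifq* dark and WT dark that did not pass the test. Of 13 other XTH genes 2 were tested. *XTH6* (AT5G65730) had 245, 201 and 173 CPM in *pifq* dark, against 2.2, 3.82 and 2.21 CPM in WT dark, the log2 fold change being 6.26 ± 0.23 (adjusted p = 1.25e-08), which exceeds that of any of the 42 genes. With lincomycin *XTH6* had 197, 195 and 159 CPM in *pifq* dark linc, against 1.29, 2.34 and 2.37 CPM in WT dark linc (6.49 ± 0.19). *XTH14* (AT4G25820) averaged 10.1 ± 0.936 CPM in *pifq* dark and 18.3 ± 4.68 CPM in WT dark (−0.86 ± 0.19). On lincomycin *XTH14* rose in *pifq* by 1.11 ± 0.14, with 22.1, 20.6 and 23.9 CPM in *pifq* dark linc, against 9.12, 11 and 10.4 CPM in *pifq* dark, and its interaction was 1.17 ± 0.25 (adjusted p = 0.00775). The 3 secondary-wall genes *CESA4*, *CESA7* and *CESA8*, which build xylem walls, were between 0.02 and 0.17 in *pifq* dark against WT dark, not past the threshold, and *CESA9* and *CESA10* were under the filter.

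Among 8 partners of cellulose synthesis, only *COB*, a GPI-anchored protein needed for oriented microfibrils, was called in *pifq* dark against WT dark (−0.45 ± 0.15, 116 ± 16.5 CPM in *pifq* dark and 157 ± 23.5 CPM in WT dark). Of 6 xyloglucan synthesis genes tested out of 7, 3 were lower. These were the glucan synthase gene *CSLC4* (−0.99 ± 0.14), the galactosyltransferase gene *MUR3* (−0.54 ± 0.16) and the xylosyltransferase gene *XXT5* (−0.41 ± 0.12). Of 3 enzymes that trim xyloglucan side chains, the β-galactosidase gene *BGAL10* (−1.14 ± 0.13) and the α-xylosidase gene *XYL1* (−0.62 ± 0.22) were lower. Of 6 pectin genes tested out of 8, the pectin methylesterase genes *PME35* (−1.56 ± 0.18) and *PME3* (−0.60 ± 0.12) were lower, and *PME18* was higher (0.45 ± 0.12).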

How the data were processed

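The deposited values are raw counts, which the authors obtained by mapping 3′-capture reads with Bowtie 0.12.7, allowing 1 mismatch, to the last 500 bases of the coding strand of TAIR10 representative transcripts. The labels mention technical duplicate runs, and the deposited table holds 1 column per library. Groups were tested with edgeR 4.0.16, run in R 4.3.3 (quasi-likelihood test, TMM, Benjamini-Hochberg adjustment, 5 CPM in at least 2 libraries, the filter of the study's methods), on the 6 libraries of both groups, or on all 12 for the interaction. The standard error is the log2 fold change divided by the square root of F. The tests were tried on simulated counts. Replicates of a group differed by mean chi-square per gene values of 6.38 to 27.7, so none was a copy of another. In *pifq* dark, replicate 3 differed from replicates 1 and 2 by 20.6 and 27.7, and replicates 1 and 2 from each other by 6.58. In WT dark, replicate 2 differed from replicates 1 and 3 by 23.0 and 15.6, and replicates 1 and 3 from each other by 8.67.

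The members, lists and motifs were chosen with earlier results of these data known. Library values were given for genes called with at least a 2-fold change between any pair of groups, for genes called in the interaction and for the CESA genes (24 genes); those of *EXPA16*, *EXPB3*, *XTH4*, *XTH8*, *XTH27* and *XTH32* were added after their values were seen. From the further lists, up to 3 called genes were named. Alternatives were RLE size factors, library totals, DESeq2 1.42.0, no filter, leaving out genes above 1% of the counts, the replicate block, all 12 libraries in 1 fit, and leaving out each library.

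Replicate numbers come from the labels, which do not say what a number shares. Deviations of same-numbered libraries correlated between 0.37 and 0.541 over the 3 pairs of *pifq* dark linc and *pifq* dark. The main fit of these groups did not pair the libraries, and the replicate block, which does, was run as an alternative. Gene models and sequence are from RefSeq on TAIR10.1, and 3′ ends were compared with blastn 2.17.0.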

Additional observations from a re-analysis of the deposited data

Results flagged for a closer look

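The response of *EXPA1* to lincomycin differed between the genotypes, by −0.88 on the log2 scale for *pifq* minus WT in the interaction test. It averaged 74.2 ± 5.84 CPM in *pifq* dark linc and 153 ± 15.8 CPM in *pifq* dark, and 29.3 ± 4.36 CPM in WT dark linc and 32.6 ± 0.67 CPM in WT dark (SD, n = 3 each). The *EXPA1* call was lost on library totals (adjusted p = 0.0567 in the same interaction test). The response of *EXPA4* differed by 0.85 in the interaction test, a call lost in 5 of the 12 fits that left out 1 library. It averaged 12.5 ± 0.979 CPM in *pifq* dark linc and 7.38 ± 1.01 CPM in *pifq* dark, and 10.3 ± 1.34 CPM in WT dark linc and 10.9 ± 0.931 CPM in WT dark.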

How the results depend on the processing

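The calls of single wall genes kept their direction under every alternative run. Of the 27 calls in *pifq* dark against WT dark, 21 passed in every fit, and of the 26 in *pifq* dark linc against WT dark linc, 24 did. In *pifq* dark linc against *pifq* dark this held for 4 of 11, and in the interaction for 0 of 2. The fits that left out 1 library did not pair the libraries. The numbers of called genes in the 2 genotype comparisons stayed within 1.5 times of those reported under all alternatives, with 8 higher and 14 to 18 lower in *pifq* dark against WT dark when 1 library was left out, and 10 to 11 and 14 to 16 with lincomycin. For WT dark linc against WT dark the count of lower genes was 0, and it was 2 with DESeq2, 2 without the filter and 6 with the replicate block, while leaving out 1 library gave 0 to 2 higher and 0 to 8 lower genes. For *pifq* dark linc against *pifq* dark the counts were 21 higher on library totals, 17 higher and 10 lower with the replicate block, and 3 to 6 higher and 2 to 4 lower when 1 library was left out. The interaction gave 12 higher and 0 lower genes on library totals, 2 higher with the replicate block, and 0 to 1 higher when 1 library was left out. The cause of these changes was not tested. Fits without 1 library also hold fewer samples than the main fits. Where no share of all genes is given above for an alternative, its counts cannot be read against the whole table.

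Deviations of same-numbered libraries had a mean correlation of 0.241 between the genotypes without lincomycin, 0.262 between WT with and without it and −0.084 between the genotypes on it, with at least 1 pair below 0 in each, so the numbers were not taken as a pairing there. With the replicate block these comparisons gave, in that order, 8 higher and 20 lower, 0 higher and 6 lower, and 11 higher and 15 lower genes. Shares of all genes were not taken for these blocked fits, so the counts cannot be read against the whole table. In *pifq* dark linc against *pifq* dark, where all 3 pairs correlated, none of the 11 calls was lost under the block. With 3 libraries a group, small differences are near the limit of detection, and 3 of the 42 genes were under the filter in every comparison.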

Other observations

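*XTH4* had a pattern over the replicate numbers, chosen after its values were seen. Replicate 2 was its lowest library in each of the 4 groups, with 653, 511 and 724 CPM in *pifq* dark linc, 833, 664 and 1126 CPM in *pifq* dark, 794, 538 and 703 CPM in WT dark linc and 1189, 625 and 898 CPM in WT dark for replicates 1, 2 and 3. The α-expansin genes *EXPA5*, *EXPA6* and *EXPA11* each had their lowest *pifq* dark level in replicate 3, with 101, 105 and 70.7 CPM for *EXPA11*. The same held for other wall genes, among them *EXPA3*, *EXPA9*, *EXPA10*, *XTH7*, *XTH30* and *CESA1*. It did not hold for all, since *EXPA1* and *XTH4* were highest in that library. Whether a shared batch lies behind either was not tested.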
